A study of Mus musculus with 12 samples.

Results

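Messenger RNA levels of 10 cell cycle genes were followed through the differentiation of mouse embryonic stem cells (mESCs). They are the cyclin genes Ccnd1, Ccnd2, Ccnd3, Ccne1, Ccne2, Ccna2 and Ccnb1 and the genes of 3 inhibitors of cyclin-dependent kinases (CDKs), Cdkn1b, Cdkn2a and Cdkn2b. The genes were taken by symbol from a table of 24495 genes, and the list was drawn up with earlier results of these data known. All 10 were found, and all 10 were among the 15532 genes that passed a filter on low counts.

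Progress from G1 into S phase is driven by cyclin-CDK complexes. D-type cyclins activate CDK4 and CDK6, and E-type cyclins activate CDK2, and together these kinases phosphorylate the retinoblastoma family of pocket proteins, which frees E2F factors to switch on genes of DNA replication. INK4 proteins (from Cdkn2a and Cdkn2b) bind CDK4 and CDK6, whereas p27Kip1 (from Cdkn1b) binds cyclin-CDK complexes, CDK2 complexes above all. Embryonic stem cells are known for a short G1 phase, which lengthens as they differentiate.

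The cells were CCE-Nanog-GFP mESCs, a line with a green fluorescent reporter of Nanog. One line carried an shRNA against cathepsin L (shCTSL, titled KD) and the other a scrambled shRNA (shSC, titled scr), both delivered by lentivirus with antibiotic selection. Day 0 cells were undifferentiated mESCs kept with LIF on gelatin, from cells sorted for GFP. Day 2 and Day 4 cells were embryoid bodies (EBs) grown in rotation without LIF, in 10 µM all-trans retinoic acid (RA). Each of the 6 groups held 2 poly(A) RNA libraries, so a comparison of 2 groups set 2 libraries against 2. The 12 libraries held 11171111 to 27155553 assigned fragments each. The labels do not say which shRNA the shCTSL cells carried, nor whether they were a clone or a pool. Time, RA, loss of LIF and growth as EBs changed together between the days and cannot be told apart.

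The labels were checked first. Ctsl was at 137 and 147 CPM (fragment counts scaled to library size, with trimmed mean of M values factors) in shSC and at 39.2 and 37.5 CPM in shCTSL at Day 0. It rose from Day 0 to Day 4 in both lines, to 484 and 423 CPM in shSC and 257 and 253 CPM in shCTSL at Day 4. The shCTSL libraries were lower by 1.89 ± 0.15 (log2, SE) at Day 0 (adjusted p = 0.00246) and by 1.06 ± 0.14 at Day 2 (adjusted p = 0.0342). At Day 4 the difference was −0.83 ± 0.14 (adjusted p = 0.0896), which did not pass the threshold. The summed level of 7 pluripotency markers went from 5228 to 5753 CPM at Day 0 down to 284 to 362 CPM at Day 4. Over the same days 5 endoderm markers went from 8.86 to 11.9 CPM up to 298 to 356 CPM, 5 mesoderm markers from 3.58 to 4.73 CPM up to 98.8 to 123 CPM, and 5 fibroblast markers from 8.11 to 11.7 CPM up to 102 to 132 CPM. These are sums, and not every marker rose. In the fibroblast list 4 rose and 1 fell in each line (log2 −1.60 in shSC and −1.28 in shCTSL). Of the 4 mesoderm markers tested, 3 rose in each line, and 1 fell in shCTSL (log2 −1.78). Of the 5 neural markers, 3 rose and 1 fell in shSC from Day 0 to Day 4 (median log2 1.56), and 4 rose and 1 fell in shCTSL (median log2 0.67). Their sum nevertheless went from 214 to 245 CPM down to 129 to 170 CPM, since Tubb3 was the one that fell (log2 −3.94 and −3.83). At Day 2 the mesoderm sum was 96.7 and 99.2 CPM in shSC and 26.8 and 55.0 CPM in shCTSL. Mesp1, Tbx5 and Dcn had no reads in 1, 2 and 3 libraries. In bulk samples such as these fewer cells of a type and less RNA per cell cannot be told apart. The part of these shifts in the results below was not tested. The 2 shCTSL Day 2 libraries differed from each other more than any other pair, with an SD of the log2 difference between the pair of 0.621 against 0.155 to 0.233 in the other groups, so results that use them are also given without each of them.

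From Day 0 to Day 2 in shSC, 6 of the 7 cyclin genes fell and Ccnd2, Cdkn1b, Cdkn2a and Cdkn2b rose. All 10 were called (edgeR quasi-likelihood test, Benjamini-Hochberg adjusted p under 0.05 and a change of at least 1.5-fold), where 54.6% of all genes tested were, 29.3% higher and 25.3% lower. The same 6 genes fell and the same 4 rose in shCTSL from Day 0 to Day 2 (10 of 10 called, 55.5% of all genes, 30.9% higher and 24.6% lower). So they did from Day 0 to Day 4 in shSC (10 of 10, 60.7% of all genes, 32.1% higher and 28.7% lower) and in shCTSL (10 of 10, 59.9% of all genes, 32.3% higher and 27.6% lower). The comparisons of a line share its Day 0 libraries. The smallest change among these was a log2 of 0.68 for Cdkn1b in shCTSL from Day 0 to Day 4. Because more than 1 gene in 2 changed between these days, the number of calls in the list is not particular to it, and the sizes and directions are what is described next.

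**Figure D1:**
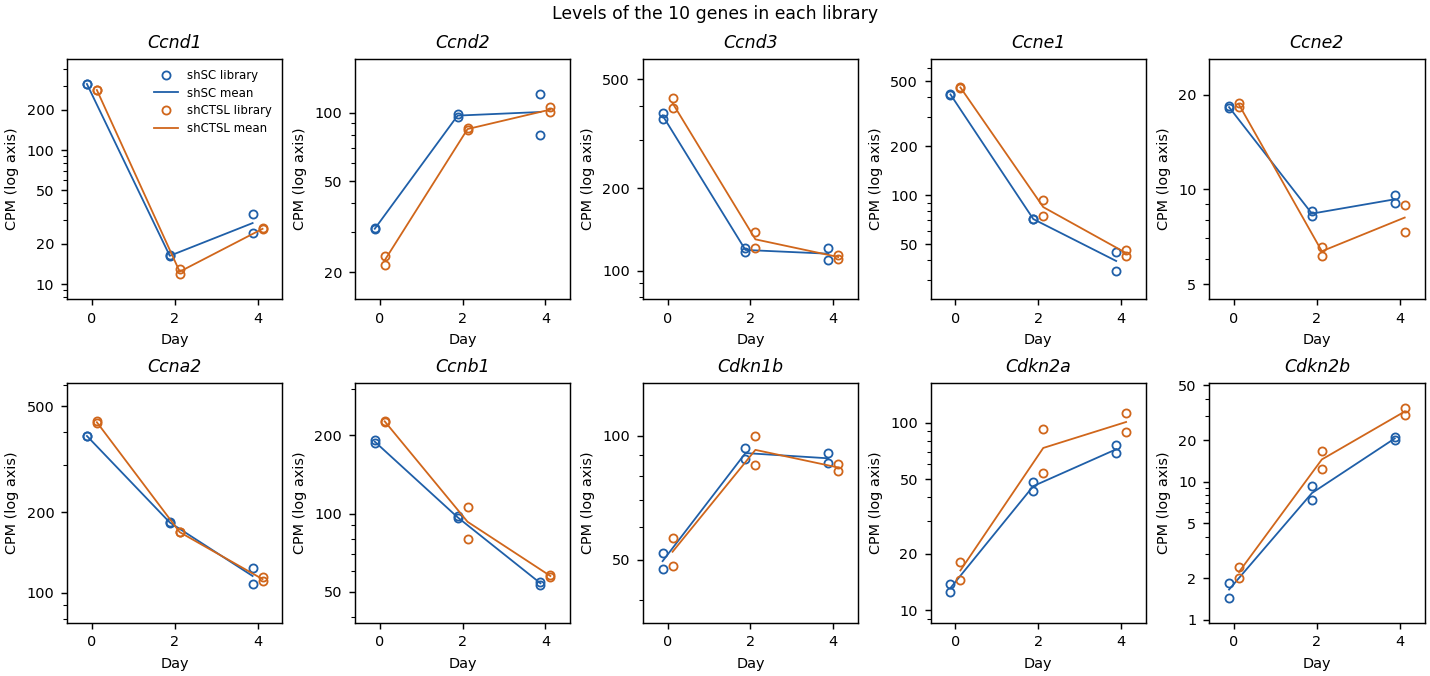
CPM on a log axis against day for each of the 10 genes, with 1 open circle per library, blue for shSC and orange for shCTSL, and a line through the mean of each line. Ccnd1 goes from 310.1 and 311 CPM to 16.5 and 16.2 CPM in shSC between Day 0 and Day 2, while Cdkn2b goes from 1.45 and 1.86 CPM to 20.9 and 20.2 CPM by Day 4.

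The D-type cyclins split. Ccnd1, the cyclin D gene most tied to growth factor signalling (mm9, chr7:152115836-152125774, minus strand), was at 310.1 and 311 CPM in shSC at Day 0, at 16.5 and 16.2 CPM at Day 2 and at 24.04 and 33.1 CPM at Day 4. In shCTSL it was at 281 and 279, at 11.9 and 13.0, and at 26.1 and 25.7 CPM. The Day 2 libraries were the lowest in both lines, and no library of one day overlapped those of another day of its line. Such separation was common and, here and for the genes below, is not particular to the gene. Between Day 0 and Day 2 it held for 89.7% of all genes tested in shSC and 75.8% in shCTSL. Between Day 2 and Day 4 it held for 77.6% and 54.7%, and between Day 0 and Day 4 for 89.7% and 88.2%. Ccnd1 fell 19.03-fold from Day 0 to Day 2 in shSC (log2 −4.25 ± 0.15 SE, adjusted p = 2.13e-08) and 22.5-fold in shCTSL (log2 −4.49 ± 0.16, adjusted p = 2.06e-08). It then rose between Day 2 and Day 4, 1.75-fold in shSC (log2 0.80 ± 0.14, adjusted p = 0.0019) and 2.08-fold in shCTSL (log2 1.06 ± 0.14, adjusted p = 0.000487), and still stood 10.9-fold and 10.8-fold below Day 0. Leaving out the second shSC Day 4 library brought its shSC rise to a log2 of 0.56, under the fold threshold, and limma-voom with library quality weights gave an adjusted p of 0.0867 for the shCTSL rise.

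Ccnd2 (chr6:127075797-127101066, minus strand) went the opposite way. Its shSC libraries were at 31.2 and 30.8 CPM at Day 0, 98.1 and 96.0 CPM at Day 2 and 80.2 and 121 CPM at Day 4. Its shCTSL libraries were at 23.5 and 21.6, at 83.8 and 85.7, and at 101 and 105 CPM. Every EB library was above every Day 0 library. The rise by Day 2 was 3.13-fold in shSC (log2 1.65 ± 0.17, adjusted p = 1.52e-05) and 3.75-fold in shCTSL (log2 1.91 ± 0.17, adjusted p = 6.37e-06). From Day 2 to Day 4 the log2 change was 0.05 ± 0.16 in shSC (adjusted p = 0.852), where the 2 Day 4 libraries lay on both sides of the Day 2 libraries, and 0.28 ± 0.16 in shCTSL (adjusted p = 0.217).

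Ccnd3 (chr17:47642000-47736632, plus strand) fell about as far by Day 2 as it would by Day 4. It was at 359 and 378 CPM in shSC at Day 0, at 121 and 117 CPM at Day 2 and at 109.5 and 121 CPM at Day 4. The shCTSL libraries stood at 426 and 393, at 121 and 139, and at 114 and 110.2 CPM. The decrease to Day 2 was 3.10-fold in shSC (log2 −1.63 ± 0.11, adjusted p = 8.24e-07) and 3.14-fold in shCTSL (log2 −1.65 ± 0.11, adjusted p = 7.44e-07), and neither line passed the test between Day 2 and Day 4 (log2 −0.05 and −0.21). The Ccnd3 transcript aligned to 2 further places in the mm9 genome at 92.5% and 96.5% identity, so its level depends on how such reads were filtered.

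Put on a scale that allows comparison between genes, CPM per kilobase of exon, the 3 D-type transcripts summed to 249.9 ± 4.6 (SD, n = 2) in shSC at Day 0 and to 74.1 ± 1.5 at Day 2 and 76.3 ± 8.1 at Day 4. The shCTSL sums were 258 ± 8.6, 75.8 ± 4.6 and 74.6 ± 0.6. Ccnd3 held the largest share throughout, 65.4% of the sum at Day 0 and 67.4% at Day 4 in shSC. The remainder changed hands. Ccnd1 held 32.4% ± 0.72 at Day 0 and 5.74% ± 0.07 at Day 2 in shSC, whereas Ccnd2 went from 2.18% ± 0.07 to 22.99% ± 0.22. In shCTSL, the Ccnd1 share went from 28.3% ± 1.0 to 4.28% ± 0.06 and the Ccnd2 share from 1.53% ± 0.03 to 19.6% ± 1.2. Shares of CPM not divided by length gave Ccnd2 41.8% of the shSC Day 2 sum, so the share depends on the exon length, which was taken from an annotation other than the one used for counting.

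**Figure D2:**
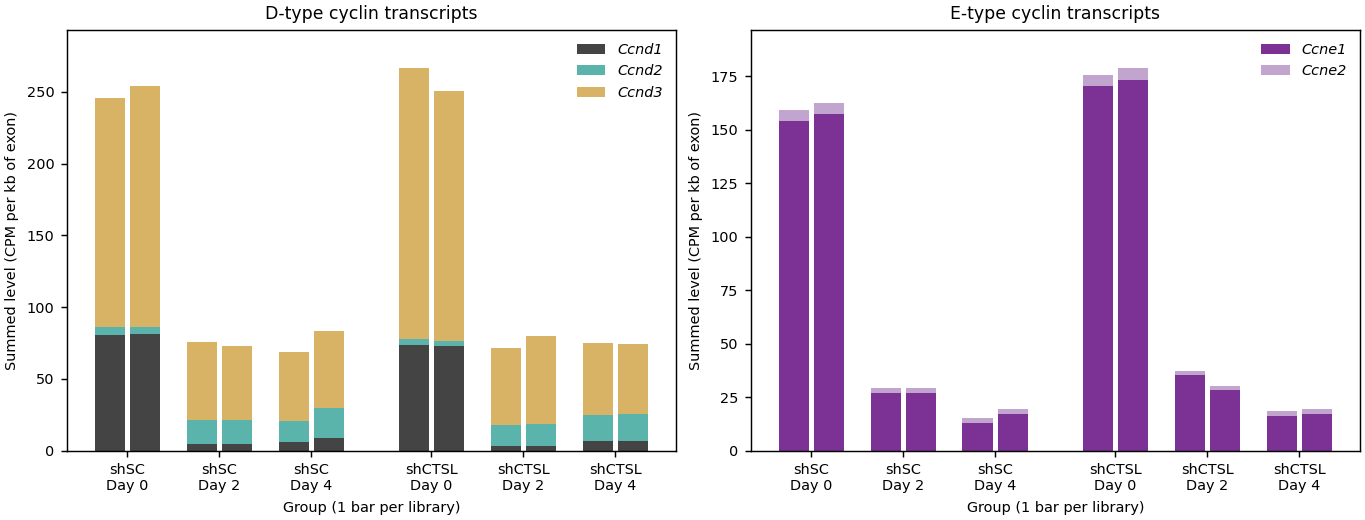
Stacked bars, 1 per library, of the summed level in CPM per kilobase of exon for the D-type cyclins (left) and the E-type cyclins (right), by line and day. The D-type bars drop from a mean of 249.9 to 74.1 in shSC between Day 0 and Day 2. The mean Ccnd3 segment goes from 163 to 52.8 and that of Ccnd1 from 81.0 to 4.25, while the Ccnd2 segment grows. The E-type bars are almost all Ccne1 at Day 0.

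Ccne1, the main E-type cyclin gene of these cells by level (chr7:38883003-38892553, minus strand), fell at both steps. The shSC libraries were at 410.4 and 419 CPM at Day 0, at 71.5 and 71.2 CPM at Day 2 and at 34.1 and 44.9 CPM at Day 4. The shCTSL libraries were at 454 and 461, at 94.0 and 75.0, and at 42.5 and 45.8 CPM. No 2 days of a line overlapped. Ccne1 fell 5.81-fold by Day 2 in shSC (log2 −2.54 ± 0.15, adjusted p = 4.05e-07) and 5.42-fold in shCTSL (log2 −2.44 ± 0.15, adjusted p = 5.14e-07). The second step was a further 1.81-fold decrease in shSC (log2 −0.86 ± 0.15, adjusted p = 0.00159) and 1.91-fold in shCTSL (log2 −0.93 ± 0.15, adjusted p = 0.00106), which brought the whole change to 10.52-fold and 10.4-fold. A fit of the 2 shCTSL groups alone gave the second step an adjusted p of 0.0577.

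Ccne2, the second E-type cyclin (chr4:11118498-11131926, plus strand), was scarcer and changed less. It was at 18.1 and 18.4 CPM in shSC at Day 0, at 8.20 and 8.54 CPM at Day 2 and at 9.02 and 9.57 CPM at Day 4. Its shCTSL libraries were at 18.3 and 18.9, at 6.15 and 6.56, and at 8.93 and 7.33 CPM. Ccne2 fell 2.18-fold by Day 2 in shSC (log2 −1.12 ± 0.14, adjusted p = 4.80e-05) and 2.91-fold in shCTSL (log2 −1.54 ± 0.14, adjusted p = 6.91e-06), and did not pass the test from Day 2 to Day 4 (log2 0.15 and 0.35). Per kilobase of exon, Ccne2 made up 3.24% ± 0.003 (SD, n = 2) of the E-type sum in shSC at Day 0, 8.20% ± 0.23 at Day 2 and 15.4% ± 2.0 at Day 4. The sum itself went from 161 ± 1.8 to 29.2 and then 17.5 ± 2.4 CPM per kilobase. The shCTSL shares of Ccne2 were 2.998% ± 0.03, 5.50% ± 1.1 and 12.3% ± 2.1.

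Ccna2, which serves CDK2 in S phase and CDK1 later in the cycle (chr3:36463788-36471072, minus strand), stepped down at both steps in shSC. It was at 388 and 385 CPM in shSC at Day 0, at 184 and 182 CPM at Day 2 and at 108 and 123 CPM at Day 4. Values in shCTSL were 439 and 432, then 169 and 169, and then 115 and 110.3 CPM. The 3 days did not overlap in either line. The decrease was 2.11-fold by Day 2 in shSC (log2 −1.08 ± 0.10, adjusted p = 5.74e-06) and a further 1.59-fold by Day 4 (log2 −0.67 ± 0.10, adjusted p = 0.000586). In shCTSL it was 2.58-fold (log2 −1.37 ± 0.10, adjusted p = 1.21e-06) and then a smaller step (log2 −0.58 ± 0.10, adjusted p = 0.0014). That last value lay just under the 1.5-fold threshold and was not counted as called. Leaving out any 1 library but the second shCTSL Day 4 library moved it past the threshold, and leaving out the first shSC Day 4 library moved the shSC step to a log2 of −0.57, just under it.

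Ccnb1, the mitotic cyclin B1 that activates CDK1 (chr13:101548605-101556525, minus strand), followed a course like that of Ccna2. The shSC libraries were at 186 and 192 CPM at Day 0, at 96.0 and 97.6 CPM at Day 2 and at 53.2 and 54.7 CPM at Day 4. The shCTSL libraries were at 225 and 228, at 106 and 79.6, and at 58.0 and 57.1 CPM. Its days did not overlap in either line. The shSC decrease was 1.95-fold by Day 2 (log2 −0.97 ± 0.13, adjusted p = 9.44e-05) and 1.79-fold from Day 2 to Day 4 (log2 −0.84 ± 0.13, adjusted p = 0.000877). In shCTSL it was 2.43-fold (log2 −1.28 ± 0.13, adjusted p = 1.34e-05) and then 1.61-fold (log2 −0.69 ± 0.13, adjusted p = 0.00294). The second shCTSL step came to a log2 of −0.49 without the first Day 2 library, under the fold threshold. In a fit of the 2 shCTSL groups alone, the adjusted p of this second step was 0.125. The Ccnb1 transcript aligned to 6 further places of the genome at 90.1% to 99.2% identity, so the level of Ccnb1 is uncertain.

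A stretch upstream of Ccnb1 is shown because CCAAT boxes are a known feature of promoters of mitotic genes. It is the 200 bases before the start site in RefSeq (GRCm38.p6, chr13:100786487-100786686, minus strand), with matches in capitals.
Ccnb1: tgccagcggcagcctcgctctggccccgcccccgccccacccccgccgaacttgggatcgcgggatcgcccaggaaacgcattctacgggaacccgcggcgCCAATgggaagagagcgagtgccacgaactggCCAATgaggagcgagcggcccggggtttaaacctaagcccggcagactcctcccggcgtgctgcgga
The capitals mark CCAAT at 99 and 67 bases before the start. The search covered 250 bases before each start, on both strands, for CCAAT (present in 33.8% of 32851 promoter entries), for an E2F motif written TTTNNCGC (4.28%) and for the CHR motif TTTGAA (16.0%). RefSeq promoter entries were at hand for 6 of the 10 genes, namely Ccnd3, Ccne1, Ccnb1, Cdkn1b, Cdkn2a and Cdkn2b. CCAAT was also found before Cdkn1b, at 161 and 35 bases, and once before 1 of the 2 starts of Ccnd3, at 108 bases. A match of letters is a description of the sequence and was not related to any binding measurement.

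The inhibitors rose. Cdkn1b (chr6:134870419-134875531, plus strand) was at 47.4 and 51.8 CPM in shSC at Day 0, at 88.0 and 93.6 CPM at Day 2 and at 90.7 and 85.7 CPM at Day 4. The shCTSL values were 56.3 and 48.2, then 85.1 and 99.8, and then 85.4 and 82.2 CPM. All EB libraries lay above all Day 0 libraries, and Day 2 and Day 4 overlapped. The increase by Day 2 was 1.83-fold in shSC (log2 0.87 ± 0.12, adjusted p = 0.000131) and 1.77-fold in shCTSL (log2 0.82 ± 0.12, adjusted p = 0.0002), the smallest of the 10 changes in each line. Between Day 2 and Day 4 the log2 change was −0.04 ± 0.12 in shSC (adjusted p = 0.832) and −0.14 ± 0.12 in shCTSL (adjusted p = 0.401).

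Cdkn2a and Cdkn2b are neighbours on chromosome 4 (mm9, chr4:88920377-88940557 and chr4:88952198-88956941, both minus strand). Cdkn2b encodes p15Ink4b. Cdkn2a encodes 2 unrelated proteins, p16Ink4a and p19Arf, which start from separate first exons and share later ones, and p19Arf acts on the p53 pathway rather than on CDK4. The count for Cdkn2a sums both transcripts, so the level of either one is not known from it.

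Cdkn2a was at 12.4 and 13.8 CPM in shSC at Day 0, at 48.5 and 43.3 CPM at Day 2 and at 75.7 and 68.7 CPM at Day 4. In shCTSL it was at 18.1 and 14.4, at 93.0 and 53.7, and at 89.1 and 113 CPM. The 3 days were separate in shSC, whereas in shCTSL the first Day 2 library lay within the Day 4 range. Cdkn2a rose 3.49-fold by Day 2 in shSC (log2 1.81 ± 0.25, adjusted p = 0.000116) and 4.48-fold in shCTSL (log2 2.16 ± 0.25, adjusted p = 3.41e-05), and by Day 4 the rise was 5.50-fold and 6.17-fold. The step from Day 2 to Day 4 did not pass the threshold in shSC (log2 0.65 ± 0.23, adjusted p = 0.056). It passed there with DESeq2 (adjusted p = 0.0317), limma-voom (adjusted p = 0.000134) and without both shCTSL Day 2 libraries (adjusted p = 0.000174). In shCTSL the step had a log2 of 0.46 ± 0.23 (adjusted p = 0.157), which became 0.89 without the first Day 2 library and 0.12 without the second.

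Cdkn2b had the lowest level of the list at Day 0, with 1.45 and 1.86 CPM in shSC and 2.01 and 2.42 CPM in shCTSL, and the fewest reads, 19 in the lowest library. It was at 9.23 and 7.31 CPM in shSC at Day 2 and at 20.9 and 20.2 CPM at Day 4, and at 16.7 and 12.3 and then 30.2 and 34.2 CPM in shCTSL. No 2 days of a line overlapped. The rise by Day 2 was 4.96-fold in shSC (log2 2.31 ± 0.23, adjusted p = 1.40e-05) and 6.56-fold in shCTSL (log2 2.71 ± 0.23, adjusted p = 4.17e-06). It rose again from Day 2 to Day 4, 2.48-fold in shSC (log2 1.31 ± 0.18, adjusted p = 0.000535) and 2.23-fold in shCTSL (log2 1.16 ± 0.18, adjusted p = 0.00108). The whole rise from Day 0 to Day 4 was 12.3-fold in shSC and 14.6-fold in shCTSL, the largest increase in the list. A fit of the 2 shCTSL groups alone gave its second step an adjusted p of 0.0525.

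The 200 bases before each of the 3 starts of this locus are shown because these genes lie side by side and rose furthest. They are from RefSeq (GRCm38.p6, minus strand) and lie at chr4:89294620-89294819 for the Arf start, chr4:89282193-89282392 for the Ink4a start and chr4:89311033-89311232 for Cdkn2b, with motif matches in capitals.
Cdkn2a, Arf start: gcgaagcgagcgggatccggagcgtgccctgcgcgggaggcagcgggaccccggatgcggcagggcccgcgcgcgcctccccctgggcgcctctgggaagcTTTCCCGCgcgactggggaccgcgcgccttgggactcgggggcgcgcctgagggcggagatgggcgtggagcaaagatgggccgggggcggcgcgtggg
Cdkn2a, Ink4a start: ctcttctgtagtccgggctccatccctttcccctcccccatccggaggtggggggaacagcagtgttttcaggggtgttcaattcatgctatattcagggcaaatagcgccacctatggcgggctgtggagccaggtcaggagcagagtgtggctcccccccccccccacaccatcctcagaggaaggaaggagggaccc
Cdkn2b: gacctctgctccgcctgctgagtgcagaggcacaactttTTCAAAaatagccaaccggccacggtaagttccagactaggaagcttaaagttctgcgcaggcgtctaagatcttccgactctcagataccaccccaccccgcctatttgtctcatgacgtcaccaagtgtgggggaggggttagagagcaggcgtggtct
The Arf stretch holds an E2F match, TTTCCCGC, 99 bases before the start. The Ink4a stretch shows none, though an E2F match stands outside it, 244 bases before that start. Cdkn2b has a CHR match on the other strand at 161 bases. In the 250 bases searched, the sequence before the Arf start held 78.4% G and C with 40 CpG dinucleotides, that before the Ink4a start 60.0% with 7, and that before Cdkn2b 53.6% with 12.

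**Figure D3:**
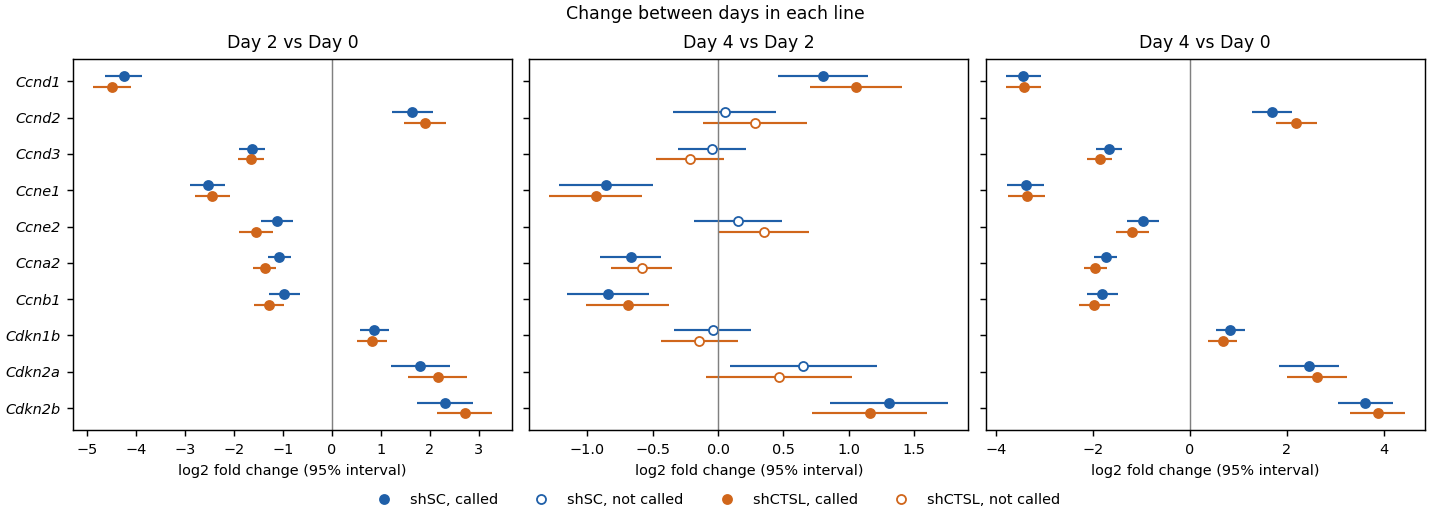
Log2 fold change with its 95% interval for each gene, in shSC (blue) and shCTSL (orange), for Day 2 over Day 0, Day 4 over Day 2 and Day 4 over Day 0, with filled circles where the change was called. In the middle panel Ccnd1 and Cdkn2b lie to the right and Ccne1, Ccna2 and Ccnb1 to the left of 0 in both lines.

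Between Day 2 and Day 4, then, 5 of the 10 genes were called in shSC, 2 of them higher (Ccnd1 and Cdkn2b) and 3 lower (Ccne1, Ccna2 and Ccnb1), where 23.8% of all genes tested were called, 11.4% higher and 12.4% lower. In shCTSL 4 were called, the same genes without Ccna2, where 23.4% of all genes were, 11% higher and 12.4% lower. Without the first or the second shCTSL Day 2 library, all 10 genes kept their call and direction from Day 0 to Day 2 in shCTSL.

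On the scale per kilobase of exon, the order of the 10 genes changed with differentiation. At Day 0 in shSC it ran from Ccnd3 (163 ± 5.9, SD, n = 2) through Ccne1 (156 ± 2.2), Ccna2 (110 ± 0.53), Ccnd1 (81.0 ± 0.14) and Ccnb1 (44.8 ± 0.90) to the inhibitors and the scarcer cyclins. Cdkn2a (11.2 ± 0.84) and Cdkn1b (10.9 ± 0.68) came next and overlapped, above Ccnd2 (5.44 ± 0.05), Ccne2 (5.22 ± 0.07) and Cdkn2b (1.19 ± 0.21). The other neighbours in that order did not overlap, but the order depends on the exon lengths used. These summed all annotated exons, 2662 bases for Ccne1, whose longest protein-coding transcript has 2000. Without division by length Ccne1 (410.4 and 419 CPM) was above Ccnd3 (359 and 378 CPM) in shSC at Day 0. By Day 4 in shSC, Cdkn2a led with 61.7 ± 4.3 CPM per kilobase, above Ccnd3 (51.1 ± 3.7) and Ccna2 (32.9 ± 3.2). Cdkn1b, Ccnd2, Ccne1 and Cdkn2b followed, each overlapping the next in that order, at 19.4 ± 0.77, 17.7 ± 5.1, 14.8 ± 2.9 and 14.8 ± 0.39. Ccnb1 (12.8 ± 0.25), Ccnd1 (7.46 ± 1.7) and Ccne2 (2.66 ± 0.11) closed the order, each without overlap with the next, though the libraries of Ccnb1 overlapped those of Ccne1. In shCTSL at Day 4, Cdkn2a led as well, with 86.3 ± 14 CPM per kilobase, and Cdkn2b came next after Ccnd3 and Ccna2 with 23.1 ± 2.0. The place of Cdkn2a at Day 4 depends on the exon lengths as well. Without division by length Cdkn2a was at 75.7 and 68.7 CPM in shSC at Day 4. Ccnd3 (109.5 and 121 CPM), Ccna2 (108 and 123 CPM), Ccnd2 (80.2 and 121 CPM) and Cdkn1b (90.7 and 85.7 CPM) were above it. In shCTSL at Day 4, Cdkn2a was at 89.1 and 113 CPM, against 114 and 110.2 CPM for Ccnd3.

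The 3 inhibitor transcripts together went from 23.3 ± 1.3 CPM per kilobase at Day 0 to 65.1 ± 2.5 at Day 2 and 95.8 ± 4.2 at Day 4 in shSC. The shCTSL sums were 26.99 ± 2.5, 93.4 ± 18 and 128 ± 12. Cdkn2a alone made up 48.1% of that sum in shSC at Day 0 and 64.4% at Day 4. Without division by length its shares were 20.4% and 39.9%, and Cdkn1b had the largest, 77.1% and 48.8%. The Cdkn2a count sums p16Ink4a and p19Arf transcripts, so the part of each sum that encodes CDK inhibitors is not known. On the scale per kilobase, the Day 4 shSC sum of the 3 inhibitors exceeded that of the 3 D-type cyclins (76.3 ± 8.1), having been 23.3 ± 1.3 against 249.9 ± 4.6 at Day 0. Without division by length the order at Day 4 was the opposite, 181 CPM for the inhibitors against 245 CPM for the D-type cyclins in shSC and 217 against 241 CPM in shCTSL, so it rests on the exon lengths.

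Whether the knockdown altered these levels was asked at each day. No gene of the list was called between shCTSL and shSC at Day 0 (0 of 10, 0.0386% of all genes called), Day 2 (0 of 10, 0.0644%) or Day 4 (0 of 10, 0.0129%) with edgeR. An unadjusted p under 0.05 was reached by 1 of the 10 at Day 0 (7.26% of all genes), by 4 at Day 2 (19.4%) and by 1 at Day 4 (12.2%). DESeq2 called 0, 1 and 0 of the 10, against 0.315%, 0.919% and 0.856% of all genes, and limma-voom 0, 0 and 1, against 1.64%, 0% and 4.65%. The change from Day 0 to Day 4 did not pass a test of the difference between the lines for any of the 10 (0 of 10 with edgeR, DESeq2 and limma-voom, which called 0.00644%, 0.133% and 0.837% of all genes, and 0 of 10 at an unadjusted p under 0.05, against 6.71%). The estimates of that difference ran from −0.22 for Ccne2 to 0.49 for Ccnd2. With 2 libraries a group, a missed threshold does not show that the lines were alike.

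Cdkn2a and Cdkn2b were higher in every shCTSL library than in every shSC library of the same day, at each of the 3 days. Both libraries of a line lay above both of the other in this way at all 3 days in 2.61% of the genes tested, and below in 4.6%. The log2 difference for Cdkn2b was 0.40 (95% interval −0.31 to 1.097) at Day 0, 0.80 (0.35 to 1.25) at Day 2 and 0.65 (0.21 to 1.08) at Day 4. That of Cdkn2a was 0.32 (−0.31 to 0.94), 0.67 (0.11 to 1.24) and 0.48 (−0.08 to 1.04). Averaged over the days, Cdkn2b was 1.53-fold higher (log2 0.61 ± 0.13, adjusted p = 0.0765) and Cdkn2a 1.41-fold (log2 0.49 ± 0.14, adjusted p = 0.142), neither past the threshold, where 0.27% of all genes were called. Of the 10 genes, 4 reached an unadjusted p under 0.05 for that mean, against 22.6% of all genes.

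How firm these 2 differences looked depended on the treatment of the shCTSL Day 2 libraries. Without both of them, the Day 4 difference of Cdkn2b was 0.66 with an adjusted p of 0.0018, past the threshold, and that of Cdkn2a was 0.49 with an adjusted p of 0.00494, under the 1.5-fold limit. Cdkn2b was then 1 called gene of the 10, where 5.89% of all genes were called. Leaving out either one of the 2 libraries gave Cdkn2b at Day 4 an adjusted p of 0.00162 or 0.00178. The first of these libraries had the higher Cdkn2a and Cdkn2b levels of the pair, and the highest share of ribosomal RNA precursor (Rn45s) of the 12 libraries, 3.43% of its fragments against 0.553% in the second and at most 1.43% elsewhere. The part of this share in the result was not tested. At Day 2, the Cdkn2a difference was 0.23 without the first shCTSL library and 1.01 without the second, and the Cdkn2b difference 0.57 and 0.997. DESeq2 called Cdkn2b at Day 2 (adjusted p = 0.0311) and over the mean of the days (adjusted p = 0.00486), where it called 0.983% of all genes, and limma-voom called it for that mean too (adjusted p = 0.0447, 0.824% of all genes).

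**Figure D4:**
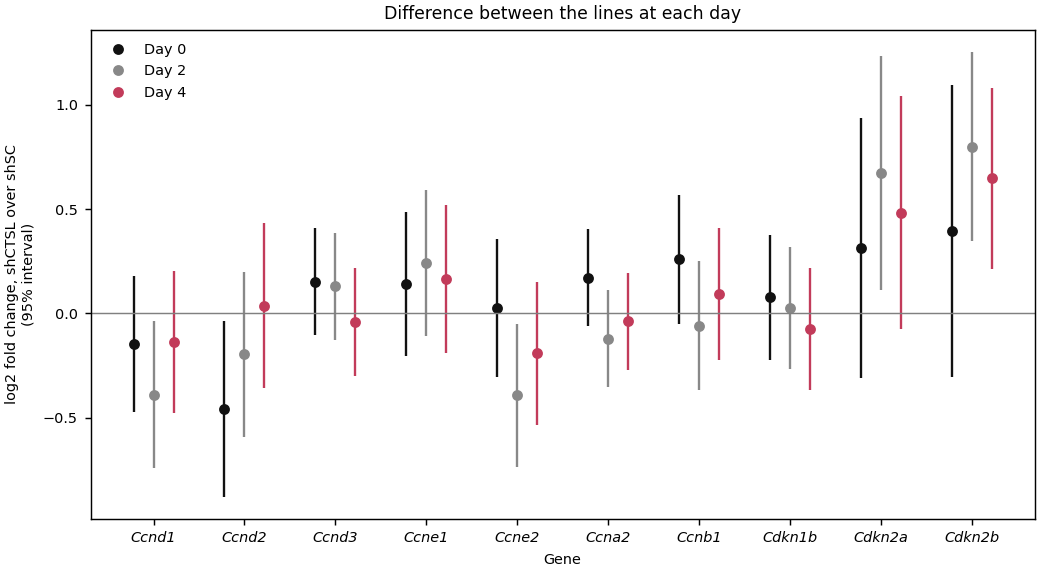
Log2 fold change of shCTSL over shSC with its 95% interval for each gene at Day 0 (black), Day 2 (grey) and Day 4 (red). Cdkn2a and Cdkn2b lie above 0 at all 3 days (0.32, 0.67 and 0.48, and 0.40, 0.80 and 0.65). Of the other genes, Ccnd2 at Day 0 is the farthest from 0 (−0.46).

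Libraries of the lines were apart for 8 of the 10 genes at Day 0, where 51.3% of all genes tested were apart, for 7 at Day 2 (45.5%) and for 5 at Day 4 (61.5%). Ccnd1 had estimates of −0.15, −0.39 and −0.14 at the 3 days, and Ccnd2 of −0.46 (95% interval −0.88 to −0.04), −0.20 and 0.04. For Ccne2 they were 0.02, −0.39 (−0.74 to −0.05) and −0.19. None of these passed the threshold after adjustment, the lowest adjusted p among them being 0.222 for Ccne2 at Day 2. Ccnd3, Ccne1, Ccna2, Ccnb1 and Cdkn1b stayed within 0.26 of 0 at all 3 days.

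The rest of the cell cycle machinery was read from lists drawn up around the 10 genes. Among 4 other CDK inhibitors, 3 rose from Day 0 to Day 4 in shSC and 3 in shCTSL, with a median log2 change of 1.57 and 1.97, against 0.03 and 0.06 over all genes tested, of which 32.1% and 32.3% rose. Cdkn1a, which encodes p21, rose by 1.596 ± 0.14 in shSC (adjusted p = 3.73e-06) and 2.16 ± 0.14 in shCTSL (adjusted p = 5.35e-07), and Cdkn1c, which encodes p57, by 1.599 ± 0.22 (adjusted p = 8.38e-05) and 1.77 ± 0.22 (adjusted p = 4.36e-05).

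Of 11 CDKs and their activators and opposing kinase, 5 fell and none rose by Day 4 in each line, where 28.7% of all genes fell in shSC and 27.6% in shCTSL. The 5 of 11 called lay under the share of all genes called, 60.7% and 59.9%. Cdk6, a partner of the D-type cyclins, fell by 1.57 ± 0.18 in shSC and Cdk1, the mitotic kinase, by 1.29 ± 0.17. Among 13 pocket proteins and E2F family members, 7 fell and 2 rose in shSC, so 9 of 13 were called where 60.7% of all genes were. The repressor E2f8 fell by 2.82 ± 0.29 and E2f4 by 1.63 ± 0.10, whereas Rb1, the retinoblastoma gene, rose by 1.49 ± 0.16 and Tfdp2, a dimer partner of E2F, by 0.92 ± 0.24. In shCTSL 6 of the 13 fell and 1, Rb1, rose, by 0.89 ± 0.16, a share of calls under the 59.9% of all genes.

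Replication and mitosis genes moved down together with Ccna2 and Ccnb1. Of 20 S phase genes regulated by E2F, 19 fell by Day 4 in each line and none rose, where 28.7% and 27.6% of all genes fell (median log2 −1.33 in shSC and −1.51 in shCTSL), with Rrm2, a subunit of ribonucleotide reductase, at −1.82 ± 0.12 and the helicase subunit Mcm5 at −1.81 ± 0.11 in shSC. Of 15 G2 and M phase genes, 14 fell in shSC and 15 in shCTSL (median −1.33 and −1.57). Cdc20, an activator of the anaphase-promoting complex, was at −1.96 ± 0.15 and Top2a, a topoisomerase, at −1.76 ± 0.15 in shSC. By Day 2 these lists had moved less, with medians of −0.85 and −0.77 in shSC. Of 4 further cyclin genes, Ccnf (log2 −1.67 ± 0.11) and Ccnb2 (log2 −1.64 ± 0.20) fell by Day 4 in shSC, and 2 were not called. Of all genes, 60.7% were called. These 4 did not all move down, as the highest log2 change by Day 4 was 2.05 in shSC and 2.39 in shCTSL, not called. By Day 2, 2 of the 4 were called higher and 1 lower in each line, where 29.3% and 30.9% of all genes were higher.

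Genes for the turnover of cyclins and inhibitors were mixed. Of 12, 8 fell and 1 rose in shSC by Day 4, and 6 fell and none rose in shCTSL. Of all genes, 60.7% and 59.9% were called, 28.7% and 27.6% lower. Cks2, a CDK-binding cofactor, fell by 1.85 ± 0.18 and Fbxo5, an inhibitor of the anaphase-promoting complex, by 1.85 ± 0.14 in shSC, while Cul4a, a ubiquitin ligase scaffold, rose by 0.78 ± 0.16. In shCTSL, Cul4a had a log2 change of 0.52 ± 0.16, under the fold threshold. No gene of these lists was called for a difference between the lines in its change from Day 0 to Day 4, where 0.00644% of all genes were. With so few calls among all genes, this does not show that the lists changed alike in the 2 lines.

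**Figure D5:**
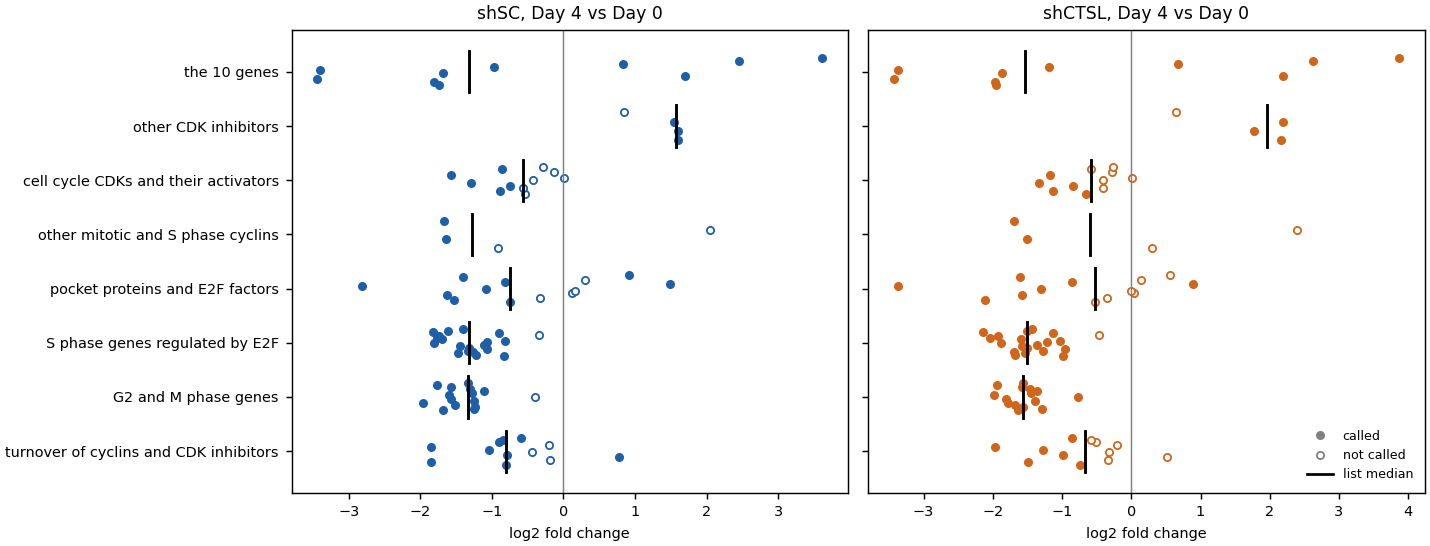
Log2 fold change from Day 0 to Day 4 of every tested gene in the list of 10 and in 7 related lists, in shSC (left) and shCTSL (right), with filled circles for called genes and a black bar at each list's median. The S phase and G2 and M phase lists lie left of 0 (medians −1.33 and −1.33 in shSC), and the other CDK inhibitors lie right of it (median 1.57).

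Over the 12 libraries the 10 genes fell into 2 sets of opposite course, Ccnd2 with the 3 inhibitors and the other 6 cyclin genes. Pearson's r of log2(CPM + 0.5) was 0.983 between Cdkn2a and Cdkn2b, 0.989 between Ccna2 and Ccnb1 and 0.982 between Ccnd1 and Ccne2, and −0.977 between Ccnd2 and Ccnd3. The genes with the most similar course were Mad2l1 (r = 0.997) and Melk for Ccnb1, and Xrcc5, Lin28a and Gemin4 for Ccna2. For Cdkn2a they were Adam15 (r = 0.997), Itm2b and Ltbr, and for Cdkn2b Tmem98 (r = 0.994), Sh3bgr and Ormdl3. The nearest genes were Gid8, Taf1a and Cluh for Ccnd1, Rhobtb1, H2afy2 and Hsd11b2 for Ccnd2, and Ints5, Nop2 and Dmtn for Ccnd3. Ccne1 was followed by Pcolce2, Nefh and Rcc1, Ccne2 by Nup62cl, Rad17 and Gtf3c3, and Cdkn1b by Prob1, Cntfr and Rnf157. Likeness of this kind was common, since 580 to 1280 genes had an r over 0.95 with each of the 10. These points share the 3 days and the libraries, and 5 of the 30 nearest genes stayed in the top 3 without the 2 shCTSL Day 2 libraries.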

How the data were processed

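Poly(A) RNA of 12 libraries (2 in each of 6 groups of line and day) was sequenced from directional libraries. Per the labels and the study's methods, the authors checked reads with FastQC 0.11.2, used STAR 2.3.0e against mm9, dropped poorly mapped, mitochondrial and unplaced-contig alignments with SAMtools 0.1.19, and counted fragments per RefSeq gene with featureCounts 1.6.2. The deposited values are these raw counts, and no normalised values were used. The sources used here do not state the strand setting of the counting. Exons of Ccnd1, Ccnd3, Ccne2 and Ccna2 overlap exons of Oraov1, Bysl, Ints8 and Exosc9 on the opposite strand over 14.6% to 21.3% of their exonic length, so reads there could be lost or shared.

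The 10 genes, the other lists and the tests were chosen with earlier results of these data known. Genes were filtered with filterByExpr (minimum count 10), scaled by TMM and fitted in edgeR 4.0.16 (quasi-likelihood, R 4.3.3) with 1 mean per group over all 12 libraries, which share 1 estimate of the spread (6 residual degrees of freedom, used for the 95% intervals). P-values were two-sided and adjusted by Benjamini-Hochberg over 15532 genes, and a gene was called at an adjusted p under 0.05 and a change of at least 1.5-fold. The scripts were tested on simulated data. The study calls its libraries biological replicates, but the labels do not say that they came from separate cultures, so p-values may measure technical spread. Alternatives were RLE scaling, DESeq2 1.42.0, limma-voom 3.58.1 with library weights, other count filters, other fold limits, fits of only the groups compared, a replicate block, and leaving out libraries.

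Named genes were all 10, Ctsl, the 2 highest and 2 lowest called genes of each other cell cycle list in shSC from Day 0 to Day 4, and the 3 genes closest to each of the 10 by Pearson's r, without predicted loci, of which 1 is not reported here. Mesp1, Tbx5, Dcn, Tubb3 and Rn45s were named after their values were seen. Positions are from GENCODE M1 on mm9. Copies were sought by aligning the longest protein-coding transcript of each gene with minimap2 2.31. The main fit did not pair libraries by replicate number.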

Additional observations from a re-analysis of the deposited data

How the results depend on the processing

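The 10 genes kept all calls from Day 0 to Day 2 and from Day 0 to Day 4 in both lines under RLE scaling, DESeq2, limma-voom and both other count filters. Under these settings 38.6% to 63.6% of all genes were called in those comparisons. A log2 change of at least 1.5 left 6 calls from Day 0 to Day 2 in shSC (24.7% of all genes), and 0 from Day 2 to Day 4 in shSC (9.41%) and in shCTSL (8.45%). Fitting only the groups compared left 1 call from Day 2 to Day 4 in shCTSL (8.01% of all genes), and gave 1 between the lines at Day 4 (4.83%). Between the lines, DESeq2 gave 1 call at Day 2 and 1 for the mean over the days, limma-voom 1 at Day 4 and 1 for the mean, no count filter 1 for the mean (0.815% of all genes), and leaving out both shCTSL Day 2 libraries 1 at Day 4 (as did leaving out either), all of them Cdkn2b. Leaving out 1 library at a time gave 10 to 10 calls from Day 0 to Day 2 in both lines, 10 to 10 from Day 0 to Day 4 in shSC and 9 to 10 in shCTSL, where Cdkn1b was lost without the second shCTSL Day 0 library (log2 0.57). It gave 4 to 6 from Day 2 to Day 4 in shSC, 4 to 5 in shCTSL, and, between the lines, 0 to 0 at Day 0, 0 to 2 at Day 2, 0 to 1 at Day 4, 0 to 2 for the mean and 0 to 0 for the difference in change. The 2 calls at Day 2 and for the mean came without the second shCTSL Day 2 library (Cdkn2a and Cdkn2b), where 31.6% of all genes were called at Day 2 and 7.68% for the mean. The cause of these shifts was not tested.

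Member changes that turned direction were not called under any of those settings. From Day 2 to Day 4 in shSC, Ccnd2 turned with limma-voom (−0.0012), and leaving out 1 library gave −0.28 to 0.32 for Ccnd2 and −0.12 to 0.024 for Ccnd3. Leaving out 1 library turned these differences between the lines: Cdkn1b at Day 0 (−0.045 to 0.18) and at Day 2 (−0.10 to 0.14), Ccnb1 at Day 2 (−0.27 to 0.13), and at Day 4 Ccnd1 (−0.36 to 0.10), Ccnd2 (−0.24 to 0.36), Ccnd3 (−0.11 to 0.032), Ccne1 (−0.026 to 0.37) and Ccna2 (−0.14 to 0.060). The library behind each turn was a shSC or shCTSL library of that day, at Day 4 1 of the 2 shSC libraries.

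Replicate numbers showed no consistent shared effect: deviations of same-numbered libraries correlated at −0.465 to 0.257, over 0.1 in 2 of 15 pairs of groups. Both extremes involved the shCTSL Day 2 libraries. Such correlations cannot exclude that same-numbered libraries were handled together. With the replicate block, 10 of the 10 genes were called from Day 0 to Day 2 in shSC (54.1% of all genes) and shCTSL (55.1%). From Day 0 to Day 4, 10 of 10 were called in shSC (60.3%) and shCTSL (59.4%). From Day 2 to Day 4, 5 were called in shSC (22.6%) and 4 in shCTSL (21.9%). Between the lines 0 were called, where at most 0.0837% of all genes were.

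With 2 libraries a group, the 95% intervals between the lines were widest for Cdkn2a and Cdkn2b at Day 0. The scarcest gene, Cdkn2b, had 19 reads in its lowest library, and intervals cover the spread between libraries only.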
